A study of Mus musculus with 7 samples.

Results

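Untranslated regions (UTRs) outside the authors' filtered peak list were followed through RNA precipitated with an antibody to EZH2 from mouse embryonic stem (ES) cells. Of 303889 counted intervals, called features here, 33671 were in the filtered list and 270218 were not. An unlisted feature belonged to a UTR class when the largest share of its bases on its own strand was 3' UTR or 5' UTR in the GENCODE M21 gene models on mm10, with coding sequence taking a base first, then 3' UTR, 5' UTR, noncoding exon and intron. This gave 15447 features, 13184 in 3' UTRs of 9154 host genes and 2263 in 5' UTRs of 2041 host genes. The listed peaks held 358 features in 3' UTRs and 49 in 5' UTRs.

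The 7 libraries came from male CAST/B6 ES cells with a Rosa26-RMCE site, grown in 15% serum, and every group had received doxycycline for 3 days. Wild type (WT, n = 3) was the parental line and clones 20 and 44. The EZH2 knockout (EZH2 KO, n = 2) was clones 12 and 19, and cells lacking both Safb and Safb2 (SAFB DKO, n = 2) was clones 13 and 4. The labels do not say what doxycycline induced. Each library was thus a line or clone of its own, and p-values measured the spread between these lines and clones.

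EZH2 is the methyltransferase of Polycomb repressive complex 2, which marks repressed genes on histone H3. SAFB and SAFB2 are nuclear RNA-binding proteins known to bind purine-rich RNA, and the series title names a cross-reaction of the antibody with SAFB. A 5' UTR lies between the cap and the start codon and sets how ribosomes find that codon. A 3' UTR lies between the stop codon and the poly(A) tail and carries sites for RNA-binding proteins, microRNAs and the cleavage machinery. Both belong to the mature mRNA as well as to its nuclear precursor, and reads from these could not be told apart here.

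Windows of 30 bases show the purine-rich pentamer GAAGA, in capitals, in UTR features that fell without SAFB proteins or rose without EZH2, and for contrast in features that moved the other way. They were read from GENCODE M21 transcripts (mm10), 5' to 3' on the strand of the RNA, at the window with the most matches in the feature. The first 4 lie in features that fell in SAFB DKO against WT: Gnas at chr2:174328860-174328889 (plus strand), Cdc37 at chr9:21133683-21133712 (minus), Zfp386 at chr12:116061437-116061466 (plus) and BC025920 at chr10:81608174-81608203 (plus).
Gnas 5' UTR: aGAAGAtgttGAAGAAGAAGAAGAAGAAGA
Cdc37 3' UTR: gcaaggagGAAGAggaaaGAAGAgtggagt
Zfp386 3' UTR: cttgtGAAGAgtgtttttctGAAGActgga
BC025920 5' UTR: aggggccagGAAGAacaGAAGAtggtacag
Another pair lies in features that rose in EZH2 KO against WT, Tbx3 at chr5:119671266-119671295 (plus) and Acat1 at chr9:53581454-53581483 (minus).
Tbx3 5' UTR: gGAAGAcagccggctccccgaggcaGAAGA
Acat1 3' UTR: caGAAGAgctatagaatgaggaagGAAGAa
The last pair lies in a feature that rose in SAFB DKO, Ak4 at chr4:101464747-101464776 (plus), and one that fell in EZH2 KO, Azin1 at chr15:38488905-38488934 (minus).
Ak4 3' UTR: aaagtccagaaatGAAGAtactaaggtctt
Azin1 3' UTR: gtgccaatggacaGAAGAttctgcttgtgc
The Gnas feature held 18 matches in 1506 bases, against a median of 3.00 in the 13 unlisted 5' UTR features of like length, itself included. Cdc37 held 10 in 2674 bases against a median of 4.00 in 509, and Azin1 held 1 in 1171 bases. Single features did not all follow this contrast. Among rises in SAFB DKO, Ak4 (5 matches), Gm2a (4) and Pecam1 (3) were denser than 74.7%, 85.5% and 88.2% of features of like length. The fall in Zfp239 held 1 match in 1047 bases, denser than 24.0%, and among rises in EZH2 KO Csnk1e held 1 and Jrk 0. A match is a description of the letters, not a binding site.

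The WT libraries held 19024702 to 21832539 counts each, the SAFB DKO libraries 15812517 and 18738499, and the EZH2 KO libraries 7050832 and 8353603. Values below are CPM (counts scaled to library size), and log2 fold changes (log2FC) with their standard error (SE). The targeted genes, summed over their features, went with the labels: Safb had at most 1.41 CPM and Safb2 at most 2.92 CPM in SAFB DKO, against at least 117 and 124 CPM elsewhere, and Ezh2 had 2.26 and 0.157 CPM in EZH2 KO against at least 143. Over tested features, the EZH2 KO libraries were least like each other (r of log2 CPM 0.887 over 3' UTR and 0.783 over 5' UTR features, against 0.977 to 0.980 and 0.949 to 0.952 within WT). Their columns are also named by another pattern than the rest, so genotype and a possible sequencing run cannot be told apart in comparisons with EZH2 KO. Of 16 ES cell markers 15 had features of their own, together at 4441 to 5835 CPM in every library. Of 8 neural markers 4 had features, at 212 to 289 CPM in WT, 180 and 212 in EZH2 KO, but 84.2 and 87.0 in SAFB DKO, and their part in the results was not tested. Libraries of the 2 groups compared did not overlap in CPM for 52.8% (SAFB DKO and WT), 51.3% (EZH2 KO and WT) and 64.6% (the knockouts) of all tested features. Every feature was called on the pooled WT libraries, so RNA covered only in a knockout has no feature.

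Ezh2 was the targeted gene with a UTR feature of its own, and that feature lost every read. Its 3' UTR feature (6:47530319-47530618) had 10.7, 13.6 and 10.3 CPM in WT, 9.53 and 16.1 CPM in SAFB DKO and no count in either EZH2 KO library. Taking 3 counts over the group as the floor, it was at least 50.2-fold lower in EZH2 KO than in WT and at least 54.5-fold lower than in SAFB DKO. Safb and Safb2 had no unlisted UTR feature.

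Precipitated RNA from 3' UTRs took a larger share of reads without SAFB proteins and a smaller share without EZH2. Unlisted 3' UTR features held 12.4%, 12.8% and 13.3% of counts in the WT libraries, 17.1% and 18.8% in SAFB DKO, and 9.57% and 9.19% in EZH2 KO. The 3 groups did not overlap. The mean was 12.8% ± 0.493 (SD, n = 3) in WT, 17.9% ± 1.16 (SD, n = 2) in SAFB DKO and 9.38% ± 0.265 (SD, n = 2) in EZH2 KO, or 1.40 and 0.731 times the WT share. The exact 95% Clopper-Pearson interval was 9.5470% to 9.5905% in the shallowest library, EZH2 KO replicate 1, and such intervals cover counting error only. In bulk libraries, fewer cells with an RNA and less of it per cell cannot be told apart.

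The 5' UTR share was far smaller and ordered alike. It was 0.560%, 0.545% and 0.511% in WT, 0.703% and 0.654% in SAFB DKO, and 0.474% and 0.429% in EZH2 KO. The mean was 0.539% ± 0.0253 in WT, 0.679% ± 0.0344 in SAFB DKO (1.26 times WT) and 0.451% ± 0.0314 in EZH2 KO (0.838 times WT). For both classes the two-sided exact permutation p over libraries was 0.1 in each comparison with WT (n = 3 against 2) and 0.33 between the knockouts (n = 2 against 2), the smallest that these designs allow. Over the 21 class-level tests made, 17 reached that smallest value, and adjusted values ran from 0.210 to 0.9, so no class-level difference could pass 0.05.

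**Figure D1:**
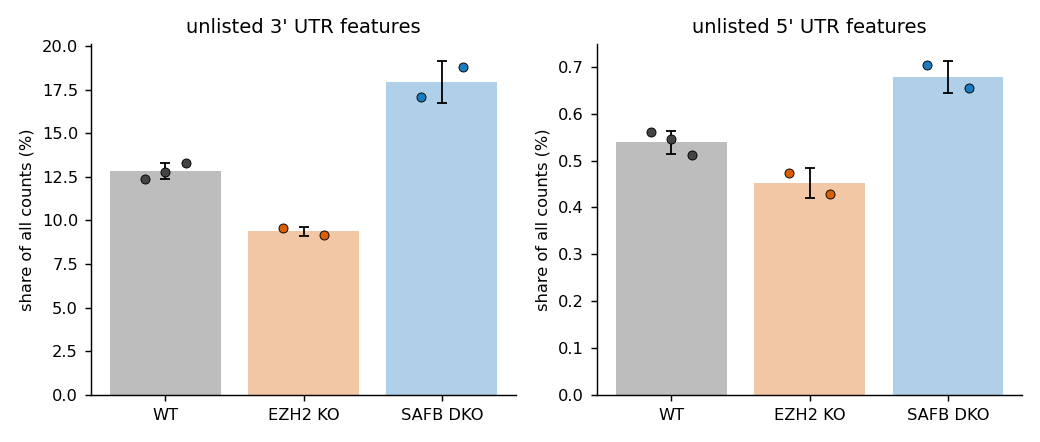
Share of all counts (%) in unlisted 3' UTR features (left) and 5' UTR features (right) by genotype, with 1 point per library, bars at the group mean and error bars of 1 SD; both vertical axes start at 0. SAFB DKO libraries lie above, and EZH2 KO libraries below, the WT libraries in both classes, and the 3' UTR share reached 18.8% in SAFB DKO.

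Summed 3' UTR counts were set against summed counts of other parts of transcripts, a ratio that needs no scaling between libraries but weights abundant features most. The log2 ratio of 3' UTR to unlisted coding-exon counts was -1.23, -1.19 and -1.17 in WT, -0.94 and -0.80 in SAFB DKO, and -1.41 and -1.36 in EZH2 KO, again without overlap. The difference from WT was 0.33 in SAFB DKO and -0.19 in EZH2 KO (exact permutation p = 0.1 for each, n = 3 against 2). With only features that had at least 90% of their bases in 1 class, it was 0.81 and -0.56. Within the 7639 host genes that had both kinds of feature, it was 0.40 and -0.24. Feature by feature there was no such difference: the median log2FC of a 3' UTR feature minus that of its host's coding exons was -0.01 in SAFB DKO and -0.06 in EZH2 KO over 9691 features. The 3' UTR to intron ratio, a rough measure of exonic against unspliced sequence, was -0.92, -0.91 and -0.77 in WT, -0.48 and -0.33 in SAFB DKO, and -1.26 and -1.30 in EZH2 KO.

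The 5' UTR to coding-exon ratio was higher in both SAFB DKO libraries than in any WT library, and overlapped between EZH2 KO and WT. It was -5.69, -5.74 and -5.88 in WT, -5.54 and -5.64 in SAFB DKO, and -5.74 and -5.78 in EZH2 KO, where the EZH2 KO values lay inside the WT range. The difference of SAFB DKO from WT was 0.18 (exact permutation p = 0.2, n = 3 against 2), 0.34 within host genes with both kinds of feature and 0.59 with features of at least 90% purity. The difference of EZH2 KO from WT was 0.01 (exact permutation p = 0.9, n = 3 against 2), and it was -0.51 with features of at least 90% purity. Against introns, 5' UTR counts rose to log2 ratios of -5.09 and -5.17 in SAFB DKO, from -5.38, -5.46 and -5.48 in WT, and were -5.60 and -5.72 in EZH2 KO. The ratio of 5' UTR to 3' UTR counts overlapped between WT (-4.46, -4.55 and -4.71) and SAFB DKO (-4.61 and -4.84), with a difference of -0.15 (exact permutation p = 0.4, n = 3 against 2).

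SAFB DKO against WT compares the RNA recovered without and with SAFB proteins. None of the 7 libraries is input RNA, so a change in RNA level and one in precipitation cannot be told apart. Of 11797 tested 3' UTR features, 793 fell (6.72%) and 1246 rose (10.6%), with a median log2FC of 0.27. Over all 192964 features tested, listed peaks included, 19.7% were called, 17.4% as falls and 2.26% as rises, and the median was -0.17. Unlisted coding exons had a median of 0.36, with 4.01% falling and 3.94% rising, and introns had -0.16, 10% falling and 1.06% rising. The share of 3' UTR calls that were falls was 38.9%, and it was 28.8% with scaling factors from all tested features, 18.6% with column totals and 18.4% under DESeq2. Those scalings shifted the median of all features by 0.09, 0.22 and 0.25. The count of rises ran from 376 without WT replicate 1 to 2476 without EZH2 KO replicate 2, and falls outnumbered rises without WT replicate 1 (524 and 376), WT replicate 2 (529 and 418) or SAFB DKO replicate 2 (655 and 388).

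Among 3' UTR features with a mean of at least 10 CPM over the 7 libraries, those that fell furthest in SAFB DKO nearly vanished. Fainter features could fall further, such as one in Dnajc1 (log2FC -3.74, adjusted p = 3.0e-05). In Gen1, a nuclease that resolves Holliday junctions, the feature at 12:11239163-11239994 had 18.8, 18.4 and 19.2 CPM in WT and 2.14 and 1.56 in SAFB DKO. It fell by 3.33 on the log2 scale (SE 0.26, adjusted p = 1.0e-07), and at 34.1 and 27.8 CPM in EZH2 KO it rose by 0.72 (adjusted p = 0.0309). The coding exons of Gen1 fell in SAFB DKO too, by 1.47 (adjusted p = 4.4e-05). In Cdc37, an HSP90 cochaperone that loads kinases, 9:21133627-21136300 had 37.1, 32.5 and 38.1 CPM in WT, 5.06 and 3.87 in SAFB DKO, and 56.2 and 61.6 in EZH2 KO. The log2FC in SAFB DKO was -3.0 (SE 0.22, adjusted p = 5.3e-08), while the coding exons of Cdc37 had 0.16 (adjusted p = 0.320). The paralog Cdc37l1 had the same order at 19:29024876-29026665, with 23.5, 26.1 and 20.7 CPM in WT, 2.87 and 3.77 in SAFB DKO, and 63.1 and 73.4 in EZH2 KO, and a fall of -2.82 (SE 0.23, adjusted p = 1.6e-07).

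Zfp386, a zinc finger gene, had 12.1, 11.6 and 9.81 CPM in WT, 0.684 and 2.37 in SAFB DKO and 24.2 and 32.4 in EZH2 KO at 12:116061432-116062392 (log2FC -2.90 in SAFB DKO, SE 0.38, adjusted p = 2.5e-05). Cklf, which encodes a chemokine-like factor, had 11.4, 11.2 and 8.98 CPM in WT, 1.64 and 1.24 in SAFB DKO and 31.0 and 28.5 in EZH2 KO at 8:104263657-104264508 (-2.86, SE 0.28, adjusted p = 1.0e-06). In each of these 5 features the SAFB DKO libraries were the lowest and the EZH2 KO libraries the highest of the 7. Zfp386 and Cklf reached the mean of 10 CPM needed for naming only through their EZH2 KO libraries. For them this order was partly set by the choice of features and is no evidence of opposite movement.

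The largest 3' UTR rises were smaller. Ak4, a mitochondrial adenylate kinase, had 14.2, 20.7 and 18.4 CPM in WT and 66.5 and 50.5 in SAFB DKO at 4:101464531-101466851. It rose by 1.72 (SE 0.21, adjusted p = 9.7e-06) and in EZH2 KO stayed within the WT range at 15.5 and 14.6 CPM. Gm2a, the activator of ganglioside breakdown, rose by 1.70 (SE 0.24, adjusted p = 5.6e-05) from 11.1, 14.6 and 11.6 CPM to 51.7 and 29.2. Pecam1, a cell adhesion molecule, had 12.4, 15.3 and 18.7 CPM in WT and 53.1 and 37.7 in SAFB DKO, a rise of 1.55 (SE 0.22, adjusted p = 6.3e-05). Smtnl2 rose by 1.65 and the transcription factor gene Elf3 by 1.48. Elf3 reached the mean of 10 CPM needed for naming only through its SAFB DKO libraries, so its height there was partly set by that choice. Of these 5, coding exons rose too in 3, by 1.61 in Smtnl2, 1.07 in Pecam1 and 1.34 in Elf3.

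**Figure D2:**
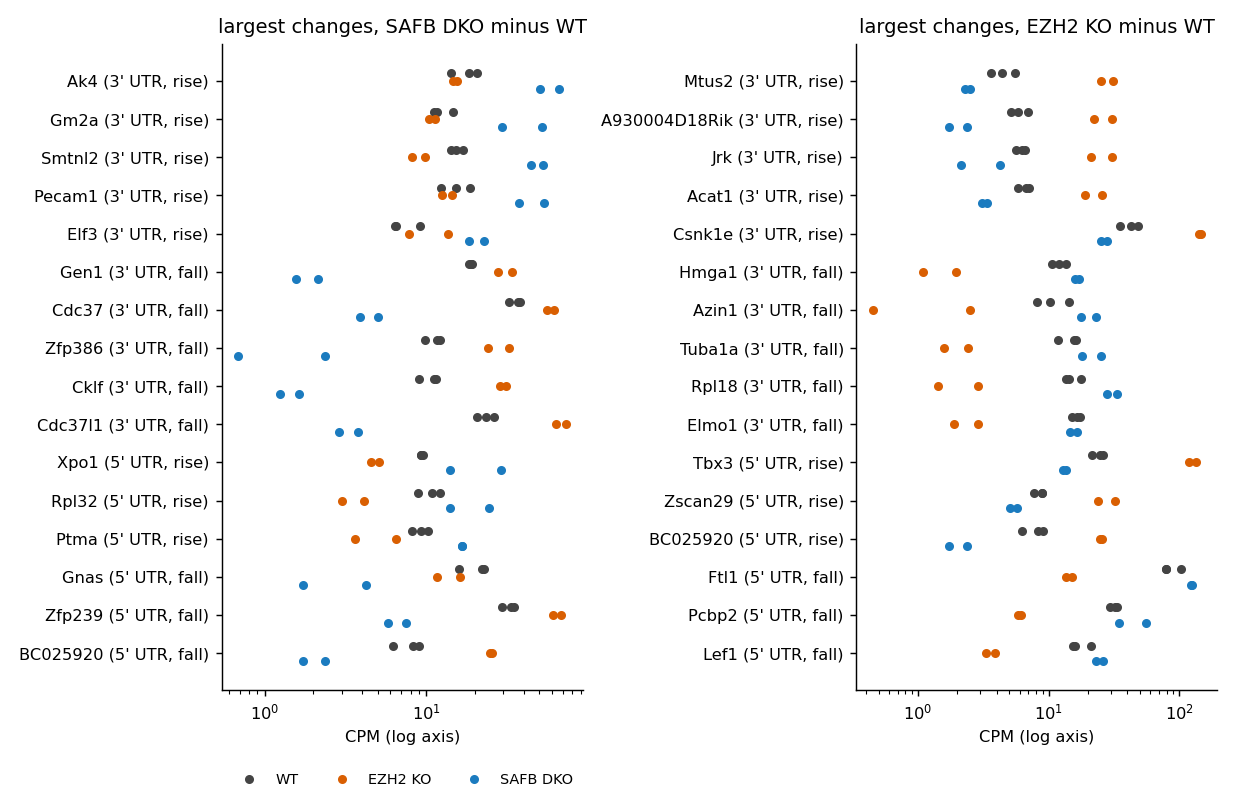
CPM (log axis) in each library of the UTR features with the largest calls in SAFB DKO against WT (left) and EZH2 KO against WT (right), with WT in grey, EZH2 KO in orange and SAFB DKO in blue. Only features with a mean of at least 10 CPM over the 7 libraries were ranked. In the 5 largest 3' UTR falls of the left panel SAFB DKO libraries lie at 0.684 to 5.06 CPM, below every WT library.

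Few 5' UTR features were called in SAFB DKO against WT. Of 1577 tested, 53 fell (3.36%) and 22 rose (1.40%), and the median log2FC was 0.19. The direction of this balance depended on the scaling: falls made up 70.7% of calls, 52.2% with factors from all tested features, 28.9% with column totals (39 fell and 96 rose), and 31.1% under DESeq2 (37 fell and 82 rose). Rises ran from 3 without SAFB DKO replicate 1 to 98 without EZH2 KO replicate 1.

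Among 5' UTR features with a mean of at least 10 CPM, the largest fall was in Gnas, an imprinted locus that encodes the stimulatory G protein alpha subunit. The feature at 2:174328047-174329613, which carries the GAAGA repeat printed above, had 22.9, 22 and 15.9 CPM in WT, 1.73 and 4.25 in SAFB DKO and 16.1 and 11.6 in EZH2 KO. It fell by 2.77 in SAFB DKO (SE 0.34, adjusted p = 1.4e-05), and coding exons of Gnas fell by 1.27 (adjusted p = 8.6e-04). Zfp239 fell by 2.30 (adjusted p = 4.9e-07) from 33.6, 35.1 and 29.6 CPM to 7.44 and 5.81, and BC025920 by 1.93 (adjusted p = 8.8e-05) from 8.32, 9.04 and 6.26 to 2.37 and 1.72. Both rose in EZH2 KO, Zfp239 to 60.6 and 68.3 CPM and BC025920 to 24.7 and 25.6. BC025920 reached the mean of 10 CPM only through its EZH2 KO libraries. For BC025920 the order of the groups was thus partly set by the choice of features and is no evidence of opposite movement. Of the bases of Zfp239 and BC025920, 44.2% and 59.4% were 5' UTR.

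At a mean of at least 10 CPM, the 3 largest 5' UTR rises were less firm. All 3 reached that mean only through their SAFB DKO libraries, so their height there was partly set by the choice of features. Xpo1, the main nuclear export receptor, had 9.28, 9.32 and 9.5 CPM in WT and 28.9 and 14 in SAFB DKO, a rise of 1.20 (SE 0.27, adjusted p = 0.00394) that missed the threshold without SAFB DKO replicate 1 (0.58). Rpl32 rose by 0.87 (adjusted p = 0.0278) and Ptma, which encodes prothymosin alpha, by 0.84 (adjusted p = 0.0235). Rpl32 was not called without SAFB DKO replicate 1 (0.40) or without any WT replicate (0.74 to 0.97), and Ptma was not called without any WT or SAFB DKO replicate (0.75 to 0.92). Rpl32 shares its feature with Snora7a, and near-identical copies of both genes make their counts uncertain.

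EZH2 KO against WT compares the RNA recovered without and with EZH2, and here UTR features mostly went down. Again a change in RNA level and one in precipitation cannot be told apart. Of the tested 3' UTR features 2368 fell (20.1%) and 667 rose (5.65%), with a median log2FC of -0.54. Over all features tested 15.6% were called, 8.07% as falls and 7.50% as rises, with a median of -0.21. Coding exons had a median of -0.68 and introns of -0.23. Among 5' UTR features 124 fell (7.86%) and 61 rose (3.87%), with a median of -0.41. Falls were 78.0% of the 3' UTR calls and 67.0% of the 5' UTR calls, 89.4% and 85.0% with column totals, then 77.5% and 67.3% under DESeq2. Among 5' UTR features with a mean of at least 50 counts, 54 fell and 65 rose. The count of 3' UTR falls ran from 1133 without WT replicate 3 to 4159 without EZH2 KO replicate 2, and that of 5' UTR falls from 36 without WT replicate 1 to 305 without EZH2 KO replicate 2. In EZH2 KO 459 tested 3' UTR and 118 tested 5' UTR features had no counts; with these at their bound the medians were -0.53 and -0.39.

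Among features with a mean of at least 10 CPM over the 7 libraries, the 5 largest 3' UTR falls in EZH2 KO were in features of 8.14 to 17.6 CPM in WT. All but Elmo1 reached that mean only through their SAFB DKO libraries. For those, the order of the groups was partly set by the choice of features and is no evidence of opposite movement. Fainter features could fall further, such as one in Eif3e (log2FC -4.53, adjusted p = 3.3e-04). Hmga1, an architectural chromatin protein, had 12.1, 10.6 and 13.6 CPM in WT, 1.95 and 1.10 in EZH2 KO, with 16 and 17.2 in SAFB DKO at 17:27563252-27563387. It fell by 2.97 (SE 0.34, adjusted p = 5.3e-05). Azin1, which inhibits the antizyme of polyamine synthesis, had 8.14, 10.3 and 14.3 CPM in WT and 0.451 and 2.52 in EZH2 KO (log2FC -2.89, SE 0.46, adjusted p = 6.5e-04), and its coding exons fell by 1.41 (adjusted p = 0.00258). Elmo1, a Rac-activating adaptor, fell by 2.77 (SE 0.30, adjusted p = 3.4e-05) from 16.6, 17.3 and 15.0 CPM to 2.86 and 1.89, and had 16.6 and 14.7 CPM in SAFB DKO. Tuba1a fell by 2.87 and Rpl18 by 2.81. Hmga1, Tuba1a and Rpl18 have near-identical copies or pseudogenes, so their counts are uncertain.

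Among features with a mean of at least 10 CPM over the 7 libraries, the 5 largest 3' UTR rises in EZH2 KO were lower in SAFB DKO than in WT. All but Csnk1e reached that mean only through their EZH2 KO libraries. The order of the groups was thus partly set by the choice of features and is no evidence of opposite movement. Mtus2, a microtubule-associated protein gene, had 5.56, 4.42 and 3.60 CPM in WT, 25 and 31.3 in EZH2 KO, with 2.28 and 2.48 in SAFB DKO at 5:148313302-148315277 (log2FC 2.63 in EZH2 KO, SE 0.26, adjusted p = 1.9e-05). Csnk1e, which encodes casein kinase 1 epsilon, was the most abundant of them, with 43.0, 48.5 and 35.1 CPM in WT, 142 and 147 in EZH2 KO, with 28.2 and 25 in SAFB DKO. It rose by 1.78 (SE 0.17, adjusted p = 1.8e-05), while its coding exons had -0.18 (adjusted p = 0.589). Acat1, the mitochondrial acetoacetyl-CoA thiolase, rose by 1.78 from 7.03, 5.88 and 6.68 CPM to 19.1 and 25.8, A930004D18Rik by 2.14 and Jrk by 2.06. In SAFB DKO against the same WT libraries the 5 features had log2FC of -0.66 to -1.54, each called.

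Among 5' UTR features with a mean of at least 10 CPM, Tbx3, a T-box transcription factor of the naive pluripotency network, rose most in EZH2 KO. Its feature at 5:119671147-119672445 had 24.9, 26.2 and 21.5 CPM in WT, 119 and 134 in EZH2 KO, with 12.9 and 13.6 in SAFB DKO. It rose by 2.38 (SE 0.17, adjusted p = 3.4e-06), and the coding exons of Tbx3 rose by 1.39 (adjusted p = 5.8e-05). Zscan29 rose by 1.73 (adjusted p = 1.5e-04) from 8.87, 8.89 and 7.73 CPM to 24.1 and 32.4. It reached the mean of 10 CPM only through its EZH2 KO libraries, so its height there was partly set by the choice of features. Ftl1, the ferritin light chain, fell by 2.62 (SE 0.20, adjusted p = 3.5e-06) from 104, 79.7 and 79.4 CPM to 15.0 and 13.5, with 123 and 126 in SAFB DKO. Pcbp2, a poly(C)-binding protein, fell by 2.39 from 33.3, 29.4 and 32.0 CPM to 6.16 and 5.82, and Lef1, a Wnt effector, by 2.28 from 15.4, 21.3 and 15.9 CPM to 3.91 and 3.30. Ftl1 has many processed pseudogenes, and its counts are uncertain.

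**Figure D3:**
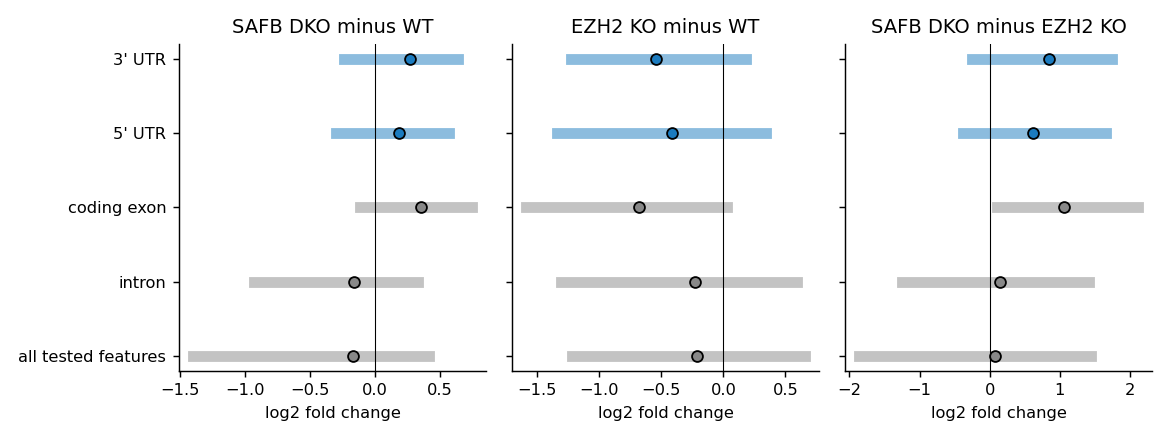
Median (point) and interquartile range (bar) of the log2FC of tested features by class in the 3 comparisons, with unlisted UTR classes in blue and unlisted coding exons, unlisted introns and all tested features in grey. In SAFB DKO minus WT both UTR medians lie above 0 (0.27 and 0.19) and that of all tested features below it (-0.17), and in EZH2 KO minus WT both UTR medians lie below 0 (-0.54 and -0.41).

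SAFB DKO against EZH2 KO, which leaves out the WT libraries on which features were called, is also the test of whether the knockouts differed. Of 3' UTR features 1406 were lower (11.9%) and 4483 higher (38.0%) in SAFB DKO, with a median of 0.85, and of 5' UTR features 117 (7.42%) and 330 (20.9%), with a median of 0.61. Over all features 39.9% were called, 23.3% lower and 16.6% higher, with a median of 0.08. The lower ones were 26.2% of the 5' UTR calls and 13.0% with column totals. Gen1, Cdc37, Zfp386, Cklf and Cdc37l1 were lower in SAFB DKO, with log2FC of -3.71 to -4.36, and Tbx3 had -3.26. Higher were Rpl18 (3.83), Azin1 (3.79) and Ftl1 (3.13). These features had been chosen by their changes against WT and a mean of at least 10 CPM over the 7 libraries. They are examples, not a test.

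The share of calls grew with abundance, and the classes differed both in abundance and, at like abundance, in their share of calls. The median mean count was 52.1 for a 3' UTR feature and 11.7 for a 5' UTR feature. In SAFB DKO against WT, 0.239% of tested 3' UTR features with a mean under 20 counts rose and 36.3% of those with 500 or more. Among features of 100 to 200 counts, 14.6% of 3' UTR and 5.36% of 5' UTR features rose, and 7.60% and 6.25% fell, against 7.91% and 29.6% of all tested features of that abundance. In the same range 26.4% of 3' UTR and 16.1% of 5' UTR features fell in EZH2 KO. At 200 to 500 counts 21.8% and 4.41% rose in SAFB DKO, the latter of 68 features. There were 18 tested 5' UTR features at 500 counts or more, too few for shares.

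The most abundant members did not move together. Sox2, a core pluripotency factor with a feature shared with Sox2ot, had 434, 443 and 419 CPM in WT, 718 and 741 in EZH2 KO, with 323 and 325 in SAFB DKO. It rose by 0.75 in EZH2 KO (adjusted p = 3.2e-04) and fell by 0.42 in SAFB DKO (adjusted p = 0.0145), a call lost with column totals (-0.19), with DESeq2 (-0.16) and without WT replicate 1 or 2 or either SAFB DKO replicate (-0.41 to -0.45). Usp48, a deubiquitinase, had 284, 316 and 268 CPM in WT, 477 and 670 in EZH2 KO, with 173 and 208 in SAFB DKO, with log2FC of 0.99 (adjusted p = 4.1e-04) and -0.60 (adjusted p = 0.00977). The fall was lost with DESeq2 (-0.35), without WT replicate 2 (-0.55) and without SAFB DKO replicate 1 (-0.48).

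Ywhag, a 14-3-3 protein, went the other way, at 308, 319 and 351 CPM in WT, 187 and 237 in EZH2 KO, with 526 and 535 in SAFB DKO, with a rise of 0.70 in SAFB DKO (adjusted p = 8.8e-04). Larp1, which binds the 5' ends of ribosomal protein mRNAs, had a 3' UTR feature at 409, 419 and 423 CPM in WT and 549 and 635 in EZH2 KO, a rise of 0.51 (adjusted p = 0.0109) that was lost without WT replicate 1 (0.51) or 2 (0.52), without EZH2 KO replicate 2 (0.33) and with column totals (0.26). Ncl, the nucleolar protein nucleolin, fell by 0.99 in EZH2 KO (adjusted p = 4.6e-04), from 431, 394 and 460 CPM to 178 and 255. In SAFB DKO, Larp1 had 406 and 342 CPM and Ncl 426 and 420, and neither was called.

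Of the 5 most abundant 5' UTR features, Smad7, an inhibitor of TGF-beta signalling, had 82.0, 111 and 74.9 CPM in WT, 208 and 256 in EZH2 KO, with 34.9 and 49.3 in SAFB DKO. It rose by 1.38 (adjusted p = 2.0e-04) and fell by 1.08 (adjusted p = 7.9e-04). Pabpc1, the cytoplasmic poly(A)-binding protein, had the opposite order, at 94.6, 83.6 and 102 CPM in WT, 55.6 and 55.2 in EZH2 KO, with 160 and 146 in SAFB DKO (log2FC -0.75 and 0.72, adjusted p = 0.00464 and 0.00231). Zfp57, which protects imprints, rose to 118 and 176 CPM in EZH2 KO from 75.9, 82.5 and 73.3 (0.92, adjusted p = 0.00271). Trim71, a regulator of ES cell mRNAs, was called in neither knockout, and Ftl1 is described above. The call of Ftl1 in SAFB DKO (0.51, adjusted p = 0.0402) was lost without WT replicate 2 or 3 or either SAFB DKO replicate (0.42 to 0.52).

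By gene group, 3' UTRs of glycolysis genes had the largest share of rises in SAFB DKO among the 17 lists with 13 or more tested 3' UTR features. Of 14 tested 3' UTR features of glycolysis genes 11 rose (78.6%) and 0 fell, with a median log2FC of 1.17, against 10.6% rises and a median of 0.27 over tested 3' UTR features. Here and below, lists were not matched in abundance to the 3' UTR features they are set against. Over those, rises in SAFB DKO ran from 0.239% under 20 counts to 36.3% at 500 or more. Falls in EZH2 KO ran from 6.28% to 47.8%. The part of abundance in the shares of the lists was not tested. Pkm, which makes pyruvate, had 208, 225 and 216 CPM in WT, 403 and 374 in SAFB DKO and 86.1 and 81.6 in EZH2 KO, with log2FC of 0.84 (adjusted p = 1.1e-04) and -1.37 (adjusted p = 2.0e-05). Slc2a3, a glucose transporter, had 133, 204 and 129 CPM in WT, 256 and 260 in SAFB DKO and 48.7 and 41.7 in EZH2 KO, and changed by 0.73 and -1.78. Summed CPM of the list was 770, 1035 and 794 in WT, 1509 and 1438 in SAFB DKO and 468 and 489 in EZH2 KO, where 7 features fell and 0 rose. WT replicate 2 was the highest WT library for both genes and for the sum of the list. Rises in SAFB DKO numbered 4 with WT replicate 1 left out and 13 with EZH2 KO replicate 2 left out.

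Nuclear genes of oxidative phosphorylation had 48 tested 3' UTR features, of which 16 rose and 2 fell in SAFB DKO and 25 fell and 0 rose in EZH2 KO. The rises were 33.3% and the EZH2 KO falls 52.1%, against 10.6% and 20.1% of all tested 3' UTR features. Atp5b, a subunit of ATP synthase, had 53.4, 53.6 and 55.3 CPM in WT, 95.2 and 100 in SAFB DKO and 22.7 and 20.8 in EZH2 KO (log2FC 0.85 and -1.32, adjusted p = 8.0e-04 and 1.5e-04). Its coding exons changed by 1.00 and -1.27. The number of rises in SAFB DKO ran from 7 without SAFB DKO replicate 2 to 27 without EZH2 KO replicate 2. Among 6 tested 5' UTR features of this list 1 fell and 0 rose in SAFB DKO, and the fall was in Ndufa13, whose feature is shared with Yjefn3.

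Ribosomal protein genes had 23 tested 3' UTR features, with 7 rises and 0 falls in SAFB DKO and 13 falls and 0 rises in EZH2 KO. The rises were 30.4% and the EZH2 KO falls 56.5%, against 10.6% and 20.1% of all tested 3' UTR features, which were not matched in abundance. Rpl22 had 63.9, 66.2 and 69.5 CPM in WT, 122 and 123 in SAFB DKO and 31.7 and 37.6 in EZH2 KO. Translation factors had 61 tested 3' UTR features, with 12 rises and 9 falls in SAFB DKO and 3 rises and 23 falls in EZH2 KO. In SAFB DKO 19.7% rose and 14.8% fell, and in EZH2 KO 4.92% rose and 37.7% fell. Over all tested 3' UTR features these shares were 10.6%, 6.72%, 5.65% and 20.1%. Eif4b rose by 0.75 in SAFB DKO (adjusted p = 5.4e-04), from 278, 292 and 302 CPM to 451 and 525, and Eef1e1 fell by 2.33 (adjusted p = 9.8e-06), from 10.9, 9.84 and 10.3 CPM to 2.33 and 1.78. Rises in SAFB DKO ran from 4 to 10 for ribosomal protein genes and from 7 to 22 for translation factors, lowest without SAFB DKO replicate 2 and highest without EZH2 KO replicate 2.

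In EZH2 KO 48.9% of hnRNP and 55.6% of splicing factor features fell, against 20.1% of all tested 3' UTR features, and in SAFB DKO 8.89% and 22.2% rose, against 10.6%. Of 45 tested 3' UTR features of hnRNP genes 22 fell and 0 rose in EZH2 KO, and 4 rose and 0 fell in SAFB DKO. Of 18 features of SR and related splicing factor genes EZH2 KO had 10 falls and 0 rises, while 4 rose and 0 fell in SAFB DKO. Ptbp1, a splicing repressor, had 113, 113 and 132 CPM in WT, 44.6 and 66.2 in EZH2 KO, with 166 and 182 in SAFB DKO. Rises in SAFB DKO numbered 0 in both lists without SAFB DKO replicate 2, 14 for hnRNP genes with column totals, and 10 for splicing factors without EZH2 KO replicate 2. Of 25 features of the SAFB family and nuclear matrix proteins 10 fell and 2 rose in EZH2 KO and 4 rose and 0 fell in SAFB DKO, and Hnrnpu, its most abundant, fell in EZH2 KO by 1.26 (adjusted p = 0.00182), from 77.4, 79.7 and 117 CPM to 31.4 and 45.1. The 4 rises of this list became 0 without SAFB DKO replicate 2.

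Of the protein turnover lists, proteasome genes had 43.5% falls in EZH2 KO and 22.6% rises in SAFB DKO, and chaperones, at 27.9% and 10.3%, lay nearer the 20.1% and 10.6% of all tested 3' UTR features. Of 62 tested 3' UTR features of proteasome and ubiquitin genes 27 fell and 1 rose in EZH2 KO, and 14 rose and 0 fell in SAFB DKO (6 rises without SAFB DKO replicate 2, 30 without EZH2 KO replicate 2). Of 68 features of chaperone genes 19 fell and 3 rose in EZH2 KO, and 7 rose and 2 fell in SAFB DKO (1 rise without SAFB DKO replicate 2, 13 with column totals). Of 17 features of extracellular matrix genes 7 fell and 0 rose in EZH2 KO, and 5 rose and 0 fell in SAFB DKO (3 rises without WT replicate 1). The EZH2 KO falls were 41.2% and the SAFB DKO rises 29.4% of these features.

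Pluripotency genes were split. Of 53 tested 3' UTR features 14 rose and 6 fell in SAFB DKO, and 9 rose and 16 fell in EZH2 KO. Tet1, a methylcytosine dioxygenase, had 25.3, 24.4 and 35.2 CPM in WT, 51.7 and 65.4 in SAFB DKO and 14.7 and 14.3 in EZH2 KO, a rise of 1.05 (adjusted p = 0.00112) while its coding exons fell by 0.90 (adjusted p = 9.6e-06). Lin28a, which blocks let-7 maturation, had 233, 235 and 285 CPM in WT, 311 and 367 in SAFB DKO and 79.1 and 87.3 in EZH2 KO. Klf4 and Fgf4 rose in EZH2 KO, Klf4 by 0.83 and Fgf4 by 0.93, and Klf4 fell in SAFB DKO by 0.70. Rises in SAFB DKO numbered 3 without SAFB DKO replicate 2 and 21 with column totals. Of the 15 features of the ES cell markers 9 rose and 2 fell in SAFB DKO (2 rises without SAFB DKO replicate 2), and 3 rose and 10 fell in EZH2 KO.

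Of 13 features of Polycomb repressive complex 2 genes 5 rose and 0 fell in SAFB DKO, with rises from 2 without SAFB DKO replicate 2 to 7 without EZH2 KO replicate 2. Ezh1, the paralog of Ezh2, had 9.61, 8.85 and 11 CPM in WT, 27.3 and 19.5 in SAFB DKO and 8.72 and 11.3 in EZH2 KO, a rise in SAFB DKO of 1.26 (adjusted p = 7.4e-04). Suz12, a core subunit, had 131, 149 and 145 CPM in WT, 153 and 162 in SAFB DKO and 153 and 256 in EZH2 KO and was called in neither. In EZH2 KO 4 features of the list fell, Ezh2 itself among them, and 1 rose. Of 36 features of Polycomb repressive complex 1 genes 4 rose and 1 fell in SAFB DKO, the fall being Pcgf3, at 9.28, 9.60 and 5.43 CPM in WT, 1.64 and 1.88 in SAFB DKO and 22.1 and 25.5 in EZH2 KO. The rises of this list were 1 without SAFB DKO replicate 2 and 10 with column totals, and 8 features fell and 1 rose in EZH2 KO. Cell cycle genes had 39 tested 3' UTR features, with 24 falls and 0 rises in EZH2 KO (15 falls without WT replicate 2), and 9 rises and 2 falls in SAFB DKO (3 rises without WT replicate 1, 18 without EZH2 KO replicate 2). Rises in SAFB DKO were 38.5% for complex 2, 11.1% for complex 1 and 23.1% for cell cycle genes. Falls in EZH2 KO were 30.8%, 22.2% and 61.5%. Over all tested 3' UTR features 10.6% rose in SAFB DKO and 20.1% fell in EZH2 KO, and complex 1 lay near those shares.

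Lists of genes that act on 3' UTRs had shares of calls in SAFB DKO near those of all tested 3' UTR features (6.72% fell, 10.6% rose), at 0% and 13.0% for 3' end processing and 7.69% and 12.8% for mRNA decay. Of 23 features of 3' end processing genes 3 rose and 0 fell (0 rises without WT replicate 2, 7 with column totals), and in EZH2 KO 2 fell and 0 rose (13 falls without EZH2 KO replicate 2). In SAFB DKO, of 78 features of mRNA decay and microRNA pathway genes 10 rose and 6 fell, and in EZH2 KO 4 rose and 20 fell. Falls in EZH2 KO were 8.70% for 3' end processing and 25.6% for mRNA decay, against 20.1% of tested 3' UTR features. Ago1, the Argonaute protein of microRNA silencing, had 87.8, 87.9 and 115 CPM in WT, 29.5 and 49.2 in EZH2 KO, with 133 and 144 in SAFB DKO, and fell by 1.30 in EZH2 KO (adjusted p = 7.2e-04). Upf2, a nonsense-mediated decay factor, rose by 0.98 in EZH2 KO (adjusted p = 0.00135) and fell by 0.81 in SAFB DKO (adjusted p = 0.00380), from 36.9, 36.5 and 35.7 CPM to 21.2 and 20.3. Rises of the decay list in SAFB DKO ran from 3 without SAFB DKO replicate 2 to 29 with column totals. Among markers of other cell types, Olig2, a neural factor, had 6.25, 7.25 and 6.21 CPM in WT, 2.42 and 2.58 in SAFB DKO and 19.5 and 20.6 in EZH2 KO. Of 4 tested 3' UTR features of neural markers 1 fell in SAFB DKO, of 3 of mesoderm markers 1 fell, of 3 of trophoblast markers 1 rose and 1 fell, and of 2 of endoderm and 4 of feeder fibroblast markers 0 were called. In EZH2 KO the neural list was split, with 1 rise, 1 fall and a median log2FC of -0.40. There 1 mesoderm feature fell, and 0 trophoblast, endoderm or feeder fibroblast features were called.

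Counts of falls in EZH2 KO depended on single libraries in many lists. Without WT replicate 3 they were 12 for oxidative phosphorylation, 14 for translation factors, 6 for splicing factors, 14 for the proteasome list, 8 for chaperones, 9 for pluripotency, 7 for mRNA decay and 6 for ES cell markers. Without WT replicate 1 they were 7 for ribosomal proteins and 5 for Polycomb repressive complex 1, and without WT replicate 2 they were 5 for the SAFB and nuclear matrix list and 4 for extracellular matrix. Without EZH2 KO replicate 2 they were 30 for chaperones, 13 for Polycomb repressive complex 1 and 9 for Polycomb repressive complex 2.

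In the 5' UTR class the lists were small. In SAFB DKO against WT, Rpl32 and Pabpc1 were the called rises of the ribosomal protein list (2 tested) and the translation factor list (12 tested). Of 7 pluripotency features and 5 of the SAFB and nuclear matrix list 1 each fell, and 0 of 11 hnRNP, 10 proteasome, 10 mRNA decay, 7 Polycomb repressive complex 1 and 6 cell cycle features were called. Over all tested 5' UTR features 1.40% rose and 3.36% fell in SAFB DKO. In EZH2 KO 5 translation factor, 3 cell cycle, 2 hnRNP and 2 proteasome features fell, where 7.86% of all tested 5' UTR features fell. Without WT replicate 1 the falls were 1 for translation factors, 0 for cell cycle genes and 0 for the proteasome list.

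**Figure D4:**
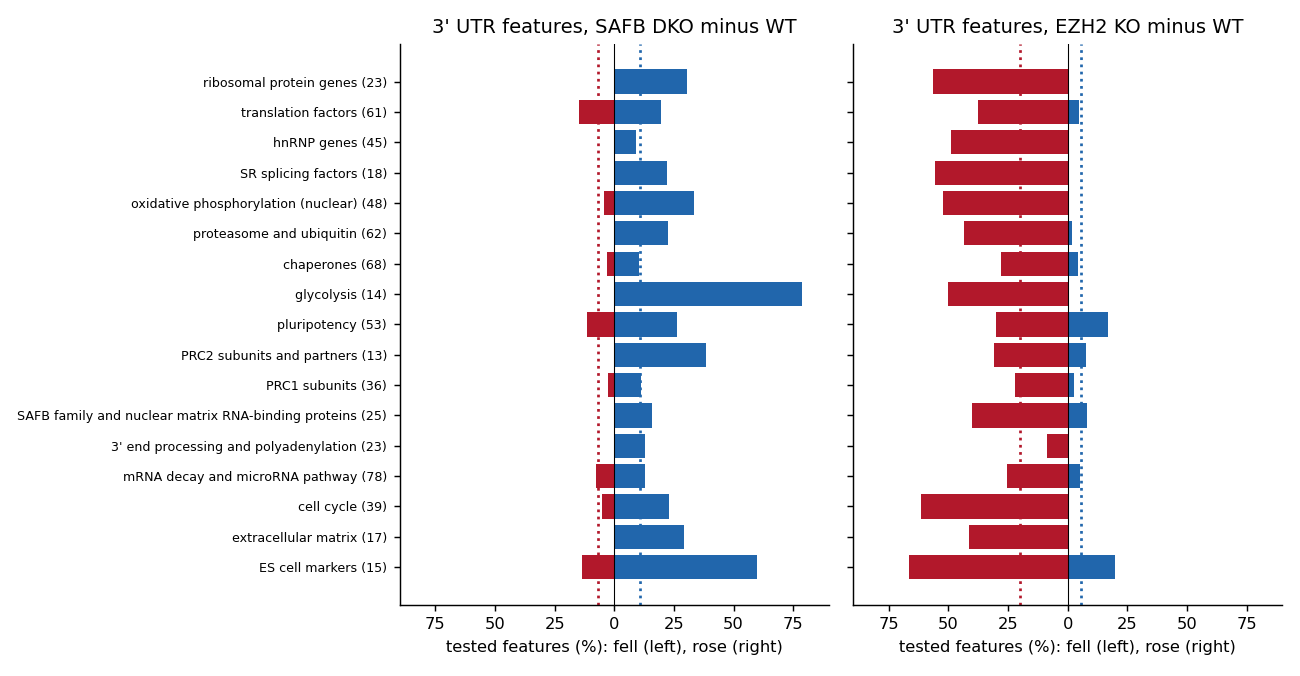
Share of tested 3' UTR features of each gene list that fell (red, left of 0) or rose (blue, right of 0), with the number tested in parentheses, for the lists with 13 or more, in SAFB DKO minus WT and EZH2 KO minus WT. Dotted lines mark the shares over all tested 3' UTR features (6.72% and 10.6% on the left, 20.1% and 5.65% on the right), and glycolysis reaches 78.6% rises on the left. The lists were not matched to those features in abundance, with which the share of calls grew.

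For 3' UTR features, rises in SAFB DKO went with the coding exons of the host gene, and falls did less so. Among 8647 tested 3' UTR features whose host had both coding and intronic counts, the 981 that rose had a median log2FC of 0.85, their hosts' coding exons 0.72 and introns 0.21. The 508 that fell had -1.42, with -0.11 in coding exons and -0.54 in introns. In EZH2 KO the 1885 that fell had -1.43, with -0.88 in coding exons and -0.38 in introns, and the 392 that rose had 1.02, with -0.08 and 0.37. Of the 1089 that rose in SAFB DKO and had a fitted coding sum, 559 had coding exons that rose, and of the 586 that fell 172 had coding exons that fell and 41 had coding exons that rose. Of 39 5' UTR features that fell in SAFB DKO and had a fitted coding sum, 21 had coding exons that fell, and the 23 falls whose host also had intronic counts had a median of -1.52, with -1.20 in coding exons. Across features the correlation in SAFB DKO against WT of UTR and coding log2FC was 0.418 for 3' UTR and 0.506 for 5' UTR features, over features that share libraries and often genes.

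Features that fell and rose in SAFB DKO also lay differently. Of the falls, 10.5% reached past the annotated end of the gene, 20.9% lay antisense to another gene and 53.3% reached into coding sequence. Of the rises the shares were 2.49%, 11.7% and 73.6%, and over tested 3' UTR features 4.59%, 12.5% and 56.7%. Falls were also longer (median 1479 bases) than rises (1200) and than all tested (762). In EZH2 KO the order was turned for each of these, with 2.49% of falls and 11.7% of rises reaching past the gene, 11.3% and 17.1% antisense, 69.9% and 65.1% reaching coding sequence, and median lengths of 911 and 1664 bases. Counting used strand, per the file header, so antisense genes were counted apart.

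Within 1 gene, neighbouring 3' UTR features could part. In 1950 genes with 2 or more tested 3' UTR features, the most proximal and most distal were both called in SAFB DKO against WT in 97 genes, 90 in the same and 7 in opposite directions. In Kdm5b, a histone H3 lysine demethylase, the proximal feature (1:134631212-134632822) rose by 0.53 (adjusted p = 0.0402) and the distal one (1:134633708-134635251) fell by 2.02 (adjusted p = 8.5e-06), from 70.7, 71.7 and 54.7 CPM to 12.2 and 20.1. In Minos1, a subunit of the mitochondrial MICOS complex, the proximal feature rose by 1.01 (adjusted p = 0.0159) and the distal one fell by 2.62 (adjusted p = 3.1e-04). Nrp2 and Csnk1e had the reverse, a proximal fall and a distal rise. These 4 genes were chosen after their values were seen. The summed distal to proximal log2 ratio over 2418 genes was -0.81, -0.81 and -0.78 in WT, -0.72 and -0.65 in SAFB DKO, and -0.99 and -0.97 in EZH2 KO.

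The pentamer GAAGA was denser in 3' UTR features that fell in SAFB DKO than in those that rose. On the RNA strand it occurred 2.29 times per kb in the 793 falls, 1.38 in 1242 rises and 1.69 over the 11767 tested features with at least 75 bases read. Its reverse complement TCTTC occurred 1.65, 1.75 and 1.71 times per kb. The order was turned in EZH2 KO, with 1.41 per kb in falls and 2.18 in rises. In SAFB DKO falls held at least 1 match in 84.2% of features and rises in 67.1%, against 61.4% of all tested. Among features of 500 to under 1000, 1000 to under 2000 and 2000 or more bases read, falls had 2.44, 2.35 and 2.08 per kb and rises 1.28, 1.37 and 1.44. Base composition moved with it: the median share of A was 27.3% in falls and 23.6% in rises, and its part in the density was not tested.

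**Figure D5:**
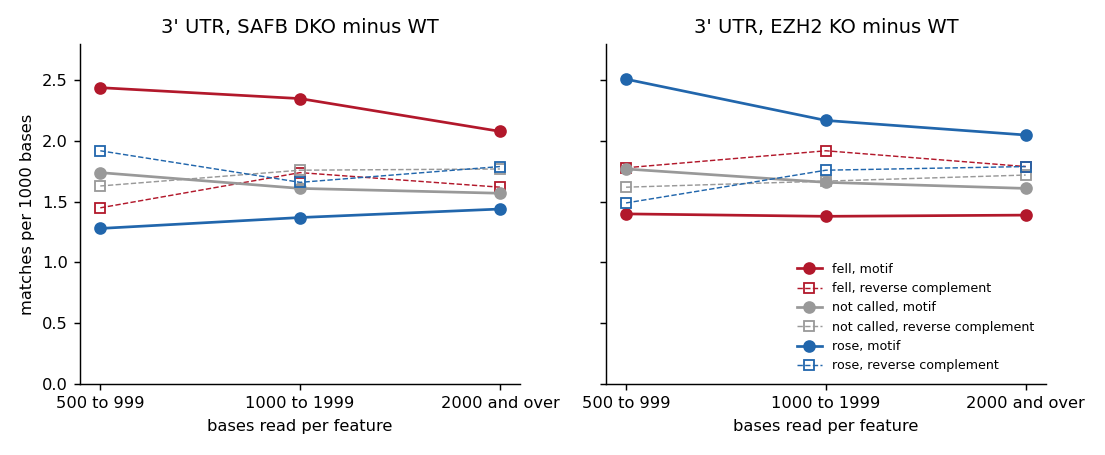
Matches per 1000 bases of the motif GAAGA (filled points, solid lines) and its reverse complement (open squares, dashed lines) in 3' UTR features that fell (red), were not called (grey) or rose (blue), by bases read per feature, in SAFB DKO minus WT (left) and EZH2 KO minus WT (right). Falls lie above rises for the motif in each of the 3 length ranges on the left (2.44 against 1.28 in the shortest) and below them on the right (1.40 against 2.51).

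In 5' UTR features GAAGA occurred 3.27 times per kb in the 53 falls of SAFB DKO, 1.79 in 21 rises and 1.97 over 1488 tested features, and its reverse complement 1.55, 2.17 and 1.62. The Gnas feature alone held 18 matches. In EZH2 KO it occurred 1.76 times per kb in 120 falls and 2.88 in 61 rises. Falls in SAFB DKO were less GC-rich than rises (median 52.3% and 60.8%). The polyadenylation signal AATAAA was present in 45.0% of the 3' UTR falls, 44.8% of the rises and 34.9% of all tested in SAFB DKO against WT. These groups differed in length, with a median of 1126, 966 and 620 bases read. Per kb the signal occurred 0.619, 0.543 and 0.600 times, so its density was not higher in called features as a whole. The motifs ATTTA and TGTANATA (N for any base) were searched too, and also differed between calls in 3' UTR features. In EZH2 KO against WT they occurred 1.38 and 0.195 times per kb in falls and 0.956 and 0.0987 in rises. In SAFB DKO against WT they occurred 1.10 and 0.128 times per kb in falls and 1.27 and 0.158 in rises. Every motif was searched on both strands.

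Class membership turned on narrow margins for few features. Within 2 percentage points of the class limit lay 121 3' UTR features just inside and 110 just outside, with a median log2FC in SAFB DKO against WT of 0.26 and 0.11, and in EZH2 KO against WT of -0.30 and -0.34. For 5' UTR features the numbers were 56 and 62, with medians of 0.43 and 0.00 in SAFB DKO and -0.54 and -0.39 in EZH2 KO.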

How the data were processed

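RNA immunoprecipitation with an antibody to EZH2 was measured in 7 libraries (3 WT, 2 EZH2 KO, 2 SAFB DKO). The deposited table gives raw read counts per feature, made by the authors with featureCounts 2.0.3 counting the reverse strand, per the file headers. Libraries were made with a kit that removes ribosomal RNA, per the labels' protocols. For the aligner and the peak caller, the name is not given in the sources used here. Another 3 columns, from a control antibody, match no sample and were not used.

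Features passing edgeR's filterByExpr were fitted with edgeR 4.0.16 (quasi-likelihood, R 4.3.3, limma 3.58.1), all 7 libraries in 1 fit by group. Library size was the column total times a TMM factor from tested unlisted features. Benjamini-Hochberg adjustment ran over all 192964 tested features, and "rose" and "fell" mean an adjusted p under 0.05. Shares and ratios were compared with two-sided exact permutation tests over libraries (Python 3.11.15, scipy 1.17.1). Members and gene lists were chosen with earlier results of these data known. Named features had a mean of at least 10 CPM, a call and no overlap between groups: the 5 largest rises and falls in 3' UTRs and 3 in 5' UTRs, at most 1 per host gene, plus the 5 most abundant of each class and, for each list, its most abundant feature and largest called rise and fall. The sites shown, the host intron sums, the summed list levels, lists by setting, position traits and length ranges for the motif were chosen after results had been seen. Sequences came from GENCODE M21 transcripts (mm10). The fit was tested on simulated counts for SAFB DKO against WT. For each fold 100 features were changed, all with a mean of at least 50 counts. At a dispersion of 0.0662, among 175912 features fitted, 9% of these 2-fold and 89% of these 4-fold changes were recovered. At 0.1, among 175622 fitted, it was 2% and 48%. A mean of 50 counts was reached by 50.8% of unlisted 3' UTR and 18.0% of unlisted 5' UTR features. Alternatives were DESeq2 1.42.0, other scalings and filters, other class rules, a replicate block and leaving out each library.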

Additional observations from a re-analysis of the deposited data

How the results depend on the processing

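The medians of both classes kept their direction in each comparison under every alternative run, but counts of calls depended on scaling, depth and single libraries, and the cause was not tested. With column totals, 2719 3' UTR and 96 5' UTR features rose in SAFB DKO against WT, 3795 and 255 fell in EZH2 KO against WT, and 535 5' UTR features were higher in SAFB DKO than in EZH2 KO. With DESeq2, 2552 and 82 rose in SAFB DKO, and with factors from all tested features 43 5' UTR features rose. With UTR bases taken before coding bases, 35 5' UTR features rose. With a mean of at least 50 counts, fewer features were tested: 1124 3' UTR features rose and 54 5' UTR features fell in EZH2 KO, and 2950 and 102 were higher in SAFB DKO than in EZH2 KO.

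With at least 90% of bases in the class, fewer features remain by construction. In SAFB DKO against WT 415 3' UTR features fell and 616 rose, with 15 and 7 in 5' UTRs; in EZH2 KO 1119 and 310, with 17 and 13; between the knockouts 722 and 2233, with 25 and 55. Share differences were then 2.55, -1.70 and 4.25 percentage points for 3' UTRs and 0.0219, -0.0245 and 0.0464 for 5' UTRs, in the same order of comparisons. Log2 ratios were 0.81, -0.56 and 1.37 (3' UTR to coding), 0.59, -0.51 and 1.10 (5' UTR to coding), 0.82, -0.68 and 1.49 (3' UTR to intron), 0.60, -0.62 and 1.22 (5' UTR to intron), and 0.05 for 5' to 3' UTR in EZH2 KO. Within host genes with both kinds of feature, 3' UTR to coding was -0.24 in EZH2 KO and 0.64 between the knockouts, 5' UTR to coding was 0.34, -0.13 and 0.47, and 5' UTR to intron was 0.46 in SAFB DKO and 0.68 between the knockouts. The 5' UTR to coding difference in EZH2 KO, 0.01 with all features, thus turned to -0.51 and -0.13, and to -0.06 without the 10 most abundant features.

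Leaving out 1 library at a time gave, for 3' UTRs, 473 to 1225 falls and 376 to 2476 rises in SAFB DKO against WT, 1133 to 4159 and 358 to 773 in EZH2 KO, and 1072 to 1530 and 3548 to 5555 between the knockouts. For 5' UTRs it gave 28 to 101 and 3 to 98, 36 to 305 and 24 to 89, and 88 to 158 and 207 to 475. The 5' UTR to coding difference in EZH2 KO ran from -0.04 without WT replicate 3 to 0.05 and was also -0.01. In SAFB DKO, features that were not called changed sign: Larp1 to 0.07 (column totals) and 0.10 (DESeq2), Ncl to 0.07, 0.21, 0.23, 0.02 and 0.01, and Zfp57 to 0.11, 0.14 and 0.05; without 1 library Ncl ran from -0.09 to 0.01 and Zfp57 from -0.33 to 0.05.

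WT and EZH2 KO share replicate numbers in the labels, but the deviations of same-numbered libraries correlated at 0.08 and 0.01, and others at -0.08 to 0.06, so they share only a number. With the replicate block, over WT and EZH2 KO alone, 1498 3' UTR features fell and 468 rose, and 47 and 31 in 5' UTRs; without the block the same libraries gave 2129 and 724, and 106 and 65. No paired analysis was possible for SAFB DKO because both labels carry the same number. Fits on these libraries alone, the comprehensive annotation and leaving out the host gene with the most features were chosen after seeing the data. The EZH2 KO libraries were the shallowest, and what their depth limits was not tested.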
